A study of Mus musculus with 18 samples.

Results

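The replication-dependent core histone genes of the mouse are the subject here: the clustered genes for histones H2A, H2B, H3 and H4. A gene was taken as a member when its symbol began with Hist1h, Hist2h, Hist3h or Hist4h and it was listed in all 18 libraries, with the 5 linker histone genes Hist1h1a to Hist1h1e left out. This gave 50 genes of the 14002 listed in any library, of which 10181 were listed in all of them: 13 for H2A, 15 for H2B, 10 for H3 and 12 for H4. Detection in every library therefore entered the rule, and 3 core histone symbols listed in only some libraries were left out, but no difference between samples did. The cells were RAW264.7, an established mouse macrophage-like line, given 200 µM 4-thiouridine (4sU), a uridine analogue that new RNA takes up and that a chemical step turns into a base read as C, so that a T-to-C conversion in a read marks RNA made during labelling. Each of 9 lysates was split into fragmented cytoplasmic RNA (input) and RNA protected by ribosomes after RNase I (footprints), both sized to 25 to 35 bases. Experiment 1 had an unlabelled lysate (0 min, no 4sU) and lysates labelled for 20, 40, 60, 90 and 120 min. The second experiment covered 20, 30 and 40 min of label, with no unlabelled lysate. No time was replicated within an experiment. Since the labels do not say which lysates came from separate cultures, p-values here reflect the spread among these samples alone, which may be technical.

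Core histones are the most abundant proteins of chromatin, and their genes are read mainly in S phase, when new DNA has to be packed. Their mRNAs are unusual among animal mRNAs in having no poly(A) tail: the 3′ end is a short stem-loop bound by SLBP, which serves in processing, translation and decay of the message. The genes lack introns, lie in clusters, exist in many near-identical copies and are transcribed in the histone locus body around NPAT. In bulk lysates, fewer cells in S phase and less histone mRNA per cell cannot be told apart.

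In the mouse build GRCm38, 42 of the 50 members lie on chr13:21715763-23762386, 6 lie on chr3:96219865-96270132, Hist3h2ba is at chr11:58948920-58949533 and Hist4h4 at chr6:136801553-136804415. All 50 matched a GENCODE M21 gene and 47 have a single exon. The stem-loop is shown because it is what sets this mRNA family apart from polyadenylated histone genes. The letters GGNNCTTNTNAGNGCC, searched on the sense strand of the annotated 3′ untranslated sequence, were found in 32 of the 38 members with at least 16 such bases and in 47 of 20507 genes in all, or 0.229%. They began 21 to 54 bases after the stop codon, with a median of 31. The 32 members held 7 distinct versions, of which the most frequent was in 16 members, the next in 6 and the third in 5 (capitals: the whole stem-loop match).
Stem-loop of 16 members: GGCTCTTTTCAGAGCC
Stem-loop of 6 members: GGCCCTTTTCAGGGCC
Stem-loop of 5 members: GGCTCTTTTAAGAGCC

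A footprint is the stretch of mRNA that a ribosome covers, and a ribosome waiting at the start codon covers about the letters printed next. They run from 12 bases before the ATG (capitals) to 17 bases after its A, come from GENCODE M21 transcripts, and are shown because members with the same protein differ there and because the reads of several members concentrated in the class with the same number of T bases (below). Hist1h4n, Hist1h4i and Hist4h4 encode H4, Hist1h2ap and Hist1h2ad H2A, and Hist1h3d and Hist1h3b H3. All lie on the minus strand except Hist1h2ad, Hist1h3d and Hist1h3b.
Hist1h4n, chr13:21832141-21832170, 12 T: tttgtcttcatcATGtctggtcgtggcaaa
Hist1h4i, chr13:22041306-22041335, 11 T: cttgtcttcatcATGtctggtcgtggcaaa
Hist4h4, chr6:136804362-136804391, 9 T: ttgtttactaatATGtcaggacgaggaaaa
Hist1h2ap, chr13:21833458-21833487, 8 T: ctactttctaccATGtctggacgcggcaag
Hist1h2ad, chr13:23574459-23574488, 8 T: ttaatctgtacaATGtctggacgcggcaaa
Hist1h3d, chr13:23575790-23575819, 12 T: ctttttcttatcATGgctcgtactaagcag
Hist1h3b, chr13:23752368-23752397, 9 T: cttgttaaagtcATGgctcgtactaagcag
The windows of Hist1h4i and Hist1h4n differ by 1 base, the substitution C1T (the base of Hist1h4i first, positions counted from 1 at the 5′ end of the window). It is a C-to-T difference, so a read of Hist1h4n converted at that base has the letters of Hist1h4i.

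The coding sequences of a class are close copies of each other. Between pairs of equal length, the median identity was 98.0% for H2A, 94.8% for H2B, 97.6% for H3 and 93.9% for H4, with extremes of 81.4% (Hist1h2ak and Hist2h2ab) and 99.5% (Hist1h2ad and Hist1h2ag). A median of 14.6% of the 30-base stretches of a member's coding sequence occurred in no other transcript, and in 5 members none did: Hist1h2ad, Hist1h2ag, Hist1h2ap, Hist1h2bc and Hist1h4n. Hist4h4 was at the other end, with 98.9%. No source used here states how reads that match several copies were counted, or whether strand was used, so the split of reads between near-identical copies is uncertain, and sums over a class are firmer than single members. The first 60 coding bases of 3 H4 genes show the range, with capitals where a gene differs from the base most frequent among the 12 H4 members.
Most frequent base: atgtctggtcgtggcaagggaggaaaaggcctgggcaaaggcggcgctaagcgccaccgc
Hist1h4n, chr13:21832099-21832158, minus strand: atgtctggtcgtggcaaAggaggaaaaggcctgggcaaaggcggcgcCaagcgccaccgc
Hist1h4d, chr13:23581602-23581661, plus strand: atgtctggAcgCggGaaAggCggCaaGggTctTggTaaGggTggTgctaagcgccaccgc
Hist4h4, chr6:136804320-136804379, minus strand: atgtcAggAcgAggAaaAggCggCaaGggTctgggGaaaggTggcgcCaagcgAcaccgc
Hist1h4n differs at 2 of these bases and is identical to Hist1h4i over them, while Hist1h4d and Hist4h4 differ at 13 each.

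The files hold read counts per gene by T positions and conversions per read. Input libraries totalled 6230562 to 7933796 reads over genes (experiment 1) or 26359243 to 48139330 (experiment 2), and footprint libraries 11771175 to 23327760 or 29065324 to 87536081. Core histones took 0.523% to 0.854% (experiment 1) or 0.384% to 0.415% (experiment 2) of the reads of an input library, and 0.981% to 1.43% or 0.735% to 0.845% of those of a footprint library. All 10 macrophage markers (such as Csf1r and Lyz2) were listed in every library, at summed levels of 6091 to 8511 CPM (counts scaled to library size, with edgeR's TMM factors) in input. Of the other types, the listed B-cell markers summed to at most 2.33 CPM in any library. Also listed were 2 of 4 T-cell markers (at most 0.472 CPM), 2 of 3 endothelial markers (0.366) and 1 of 4 epithelial markers (0.0223). Cd3e, Epcam and all fibroblast and red-cell markers were listed in none.

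H4 genes together gave the highest input level per length, with a sum of 6748 CPM per kilobase of coding sequence, followed by H2B at 4225, H2A at 2355 and H3 at 1668. In footprints the order was the same and the spacing narrower, at 10833, 9071, 6481 and 5496 CPM per kilobase. These sums assume that reads were counted over the coding sequence, which the sources used here do not state. Coding lengths are nearly equal within a class, with medians of 393 bases for H2A, 381 for H2B, 411 for H3 and 312 for H4. Mean input levels of single members ran from 3.07 CPM (Hist2h2be) to 675.6 CPM (Hist2h2bb), both H2B genes with a coding length of 381 bases.

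Footprints were denser than input on most core histone mRNAs. Of the 50 members, 38 were higher in footprints than in input and 1 was lower at an adjusted p under 0.05 (edgeR quasi-likelihood test, labelling time as a factor, Benjamini-Hochberg over 10110 genes), against 35.8% of all tested genes higher and 40.4% lower. The median member had a log2 footprint-to-input ratio of 1.12, against -0.04 over all genes, and members ran from -0.67 to 4.29. In 36 members the footprint library was above the input library in each of the 9 lysates (28.1% of all genes), and in 22 no input library reached any footprint library (16.3% of all genes). By class, 9 of 13 H2A genes rose (median 1.37), 12 of 15 H2B genes (1.18), 9 of 10 H3 genes (1.41) and 8 of 12 H4 genes (0.75).

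**Figure D1:**
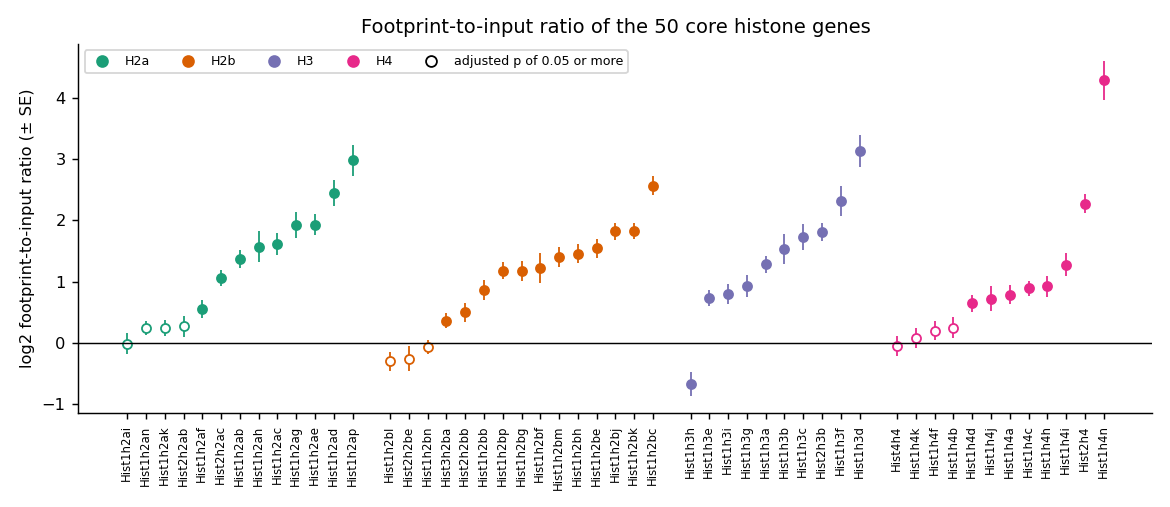
Log2 footprint-to-input ratio of each of the 50 core histone genes (points, with the SE of the edgeR fit as bars), arranged by class; filled points passed an adjusted p of 0.05 and open points did not. Members run from -0.67 (Hist1h3h) to 4.29 (Hist1h4n), and 4 of the 12 H4 genes are open points near 0.

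Among the H2A genes, Hist2h2ac and Hist1h2ab had the highest input levels. Hist2h2ac lay at 144 to 327 CPM in the 9 input libraries (median 223) and at 395 to 584 CPM in the footprints (median 466), without overlap, a log2 ratio of 1.06 (SE 0.13, adjusted p 3.00e-06). Hist1h2ab lay at 62.8, 113 and 175 CPM in input (lowest, median, highest) and at 200, 287 and 356 CPM in footprints, a log2 ratio of 1.37. Both genes separated the materials completely. Hist1h2ap had the highest ratio of the class, with 37.8, 61.2 and 108 CPM in input and 256, 650 and 784 CPM in footprints (log2 ratio 2.98, SE 0.25, adjusted p 3.83e-08). Hist1h2ai had the lowest, with 25.2, 44.2 and 74.1 CPM in input against 24.6, 44.1 and 56.5 CPM in footprints (-0.02, adjusted p 0.937). With lysate as a block Hist1h2ak (0.23, adjusted p 0.0113) and Hist2h2ab (0.28, adjusted p 0.00192) also rose, which they did not without it (0.24 and 0.27). The libraries of Hist1h2ai overlapped throughout, and H2A genes thus spanned ratios from -0.02 to 2.98, with the uncertainty of read assignment stated above.

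In the H2B class, Hist2h2bb, the member with the most input reads, rose by less than the class median of 1.18. Its input libraries lay at 406, 688 and 1041 CPM and its footprint libraries at 586, 969 and 1188 CPM (lowest, median, highest), with a log2 ratio of 0.50 (adjusted p 0.00823) and overlapping ranges, although the footprint library was higher in 9 of 9 lysates. Hist1h2bb went from 145, 264 and 347 CPM to 306, 516 and 548 CPM (0.86, adjusted p 0.00020), also with overlap. Hist1h2bc was the highest of the class, from 57.9, 102 and 162 CPM to 295, 595 and 806 CPM (2.57, SE 0.15, adjusted p 8.00e-10), without overlap. Like Hist1h2ap and Hist1h4n, the highest of the H2A and H4 classes, it has no unique coding stretch, so its level depends on read assignment. Hist1h2bl, at 5.98 to 13.4 CPM in input and 4.37 to 9.15 CPM in footprints, was the lowest (-0.30, adjusted p 0.0953) and did not pass. With lysate as a block, which pairs the materials, it fell (-0.33, adjusted p 0.00831).

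In the H3 class 9 of 10 genes rose. Hist1h3c lay at 84.4, 152 and 220 CPM in input and 274, 545 and 695 CPM in footprints (1.73, SE 0.21), and Hist1h3f at 72.6, 120 and 183 CPM and 254, 640 and 873 CPM (2.32, SE 0.25). Neither gene had overlapping libraries. Hist1h3d reached the highest ratio of the class, from 23.2, 31.1 and 62.2 CPM to 120, 312 and 479 CPM (3.13, SE 0.26, adjusted p 2.64e-08). Hist1h3h fell: 11.5, 17.8 and 28.2 CPM in input, 5.66, 11.3 and 21.6 CPM in footprints, a log2 ratio of -0.67 (SE 0.19, adjusted p 0.00538), with overlapping ranges.

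The H4 class had the lowest median ratio and the single highest ratio. Hist4h4, the single core histone gene on its chromosome, lay at 315, 515 and 855 CPM in input and 377, 475 and 668 CPM in footprints (-0.05, adjusted p 0.792). Its materials overlapped, although in experiment 2 alone the ratio was 0.37 (adjusted p 0.0053). Hist1h4d rose from 236, 398 and 517 CPM to 466, 560 and 709 CPM (0.64, adjusted p 0.00058), with overlap. Hist1h4n rose from 3.31, 6.59 and 10.9 CPM to 41.0, 124 and 238 CPM (4.29, SE 0.32, adjusted p 9.70e-09), without overlap.

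Which part of the mRNA these reads came from is not in the files, but each read's number of T positions is. The start-codon windows could be set for the 29 members with a single exon and at least 12 annotated bases before the ATG. In footprints the largest class of reads by T number had the T number of the start-codon window in 17 of the 29, and in input in 3 of the 29. The median share of reads in that class was 32.6% in footprints and 7.65% in input, and it was higher in footprints in 27 of 29 members when reads were pooled. In 22 of the 29 the lowest footprint library was above the highest input library. These counts were not made for other genes, so whether the pattern is particular to core histones was not tested. Other stretches of a gene can have the same T number, so the class is not a position.

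For Hist1h2ap the share with 8 T was 22.4% to 31.3% over the 9 input libraries and 57.2% to 71.4% over the footprints. For Hist1h3d the share with 12 T was 4.30% to 7.58% in input and 36.2% to 46.9% in footprints. For Hist1h4i the share with 11 T was 3.19% to 12.2% and 43.8% to 68.7%. These 3 genes had no overlap between materials. Hist4h4, the low-ratio H4 gene whose sequence is the most distinct, also separated, but at 2.40% to 3.23% in input and only 5.58% to 7.82% in footprints. Hist2h2ab (4.35% and 4.04%, medians over libraries) and Hist1h2bh (7.93% and 8.71%) did not separate.

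Hist1h4n was extreme in this measure too. All of its 751 input reads and all of its 23276 footprint reads had exactly 12 T positions, the number in its start-codon window. Its coding sequence has no 30-base stretch of its own. Its 49 unique stretches are 21 that start 32 to 12 bases before the ATG, with 11 to 14 T (11 of them with 12 T), and 28 that start 335 to 362 bases after it, with 6 to 9 T. The level of Hist1h4n is thus a level of reads with 1 T number, and its ratio of 4.29 is not comparable to that of genes counted over their whole length.

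**Figure D2:**
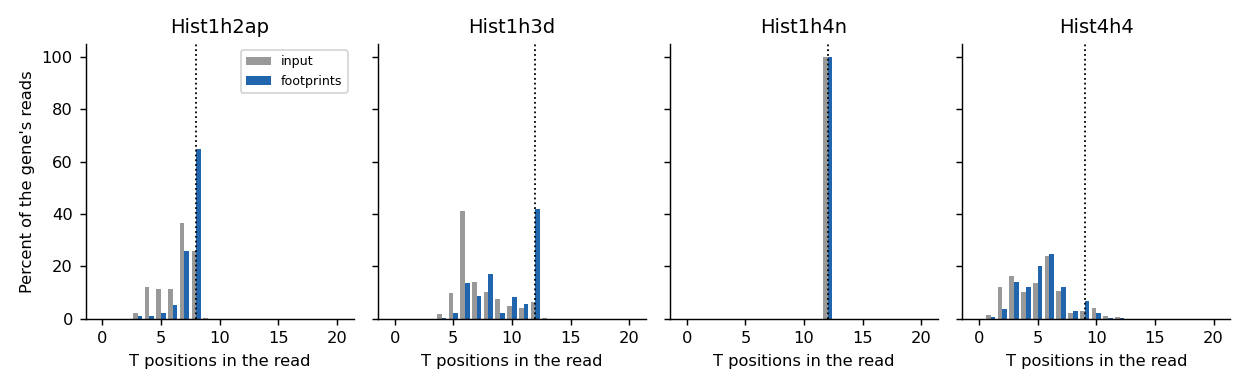
Share of a gene's reads (percent, vertical axis) by the number of T positions in the read (horizontal axis) in input (grey) and footprints (blue) for Hist1h2ap, Hist1h3d, Hist1h4n and Hist4h4, with a dotted line at the T number of the start-codon window. Footprint reads peak at the dotted line in the first 3 genes and not in Hist4h4, and Hist1h4n has reads at 12 T only.

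The classes kept an order when their reads were summed within each lysate. The log2 footprint-to-input ratio was 1.71 ± 0.17 (SD, n = 9 lysates) for H3, 1.49 ± 0.19 for H2A, 1.14 ± 0.19 for H2B and 0.72 ± 0.31 for H4. For all genes other than the 50 members, linker histones and variants included, it was 0.21 ± 0.067. H4 was below each of the other classes in 9 of 9 lysates, H2B was below H2A and below H3 in 9 of 9, and H3 was above H2A in 7 of 9. The mean differences were 0.99 between H3 and H4, 0.77 between H2A and H4 and 0.42 between H2B and H4. H3 and H2A, with a mean difference of 0.22, were not separated in every lysate.

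The reads of the start-window T class were then taken out in the 29 members with a window. This must lower the ratio wherever that class holds a larger share in footprints, so the falls restate the shares above. They are no separate result. The signs of the remaining ratios mostly held. H2A (8 members) went from 1.79 ± 0.18 to 1.08 ± 0.23, H2B (8 members) from 1.24 ± 0.17 to 0.98 ± 0.18 and H3 (7 members) from 1.85 ± 0.19 to 1.29 ± 0.15, each positive in 9 of 9 lysates before and after. H4 (6 members) went from 0.55 ± 0.36, positive in 8 of 9 lysates, to 0.16 ± 0.40, positive in 6 of 9. Hist1h4n, 1 of the 6, kept no reads after the removal. Single genes had edgeR log2 ratios of 2.98 (Hist1h2ap), 3.13 (Hist1h3d), 1.53 (Hist1h3b) and 1.28 (Hist1h4i) with all reads. Without the start-window T class their means over the 9 lysates were 1.94, 2.36, 0.36 and 0.13. These are unlike measures, so the gaps are approximate. The 16 members with a match in footprints other than Hist1h4n had a median ratio of 1.59, and the 12 without a match 1.12. Across the 50 members the ratio and the share of unique coding stretches had a Spearman rho of -0.43, a description over genes that share libraries and sequence. The part of read assignment in the ratio was not tested.

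Other histone genes had lower ratios. The counts below stand against 35.8% of all tested genes higher and 40.4% lower, and those of the 3′ end genes lie near these shares. The linker histones H1, which bind between nucleosomes and share the stem-loop, rose in 4 of 5 genes with a median of 0.67 (Hist1h1b 0.86). The variants with polyadenylated mRNAs rose in 6 of the 9 tested of 11, with a median of 0.62, led by H3f3b (1.23), which encodes the replication-independent H3.3. Of 20 histone chaperones, the proteins that carry and deposit histones, 13 rose and 4 fell (median 0.48), with Nap1l1 at 1.70. Of 17 S-phase genes 9 rose and 2 fell (median 0.31). Of 27 tested genes for histone mRNA 3′ end formation and turnover 12 rose and 8 fell (median 0.06): Snrpd3, an Sm core protein, stood at 2.81 and Slbp at 0.63, while Casp8ap2, a component of the histone locus body, stood at -2.52.

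Core histone levels were followed over the labelling times next. The summed input level of experiment 1 was 7893 CPM at 0 min, 7489 at 20, 5889 at 40, 5408 at 60, 5147 at 90 and 5633 at 120 min. In experiment 2 it was 3658, 3476 and 3329 CPM at 20, 30 and 40 min, below every library of experiment 1. Footprint sums were 13972, 14909, 11795, 13738, 12981 and 12201 CPM in experiment 1 and 8832, 7731 and 8594 CPM in experiment 2. All 4 classes shared the shape in input between 0 and 120 min of experiment 1: H2A went from 1345 to 999 CPM, H2B from 2390 to 1758, H3 from 996 to 711 and H4 from 3161 to 2165.

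**Figure D3:**
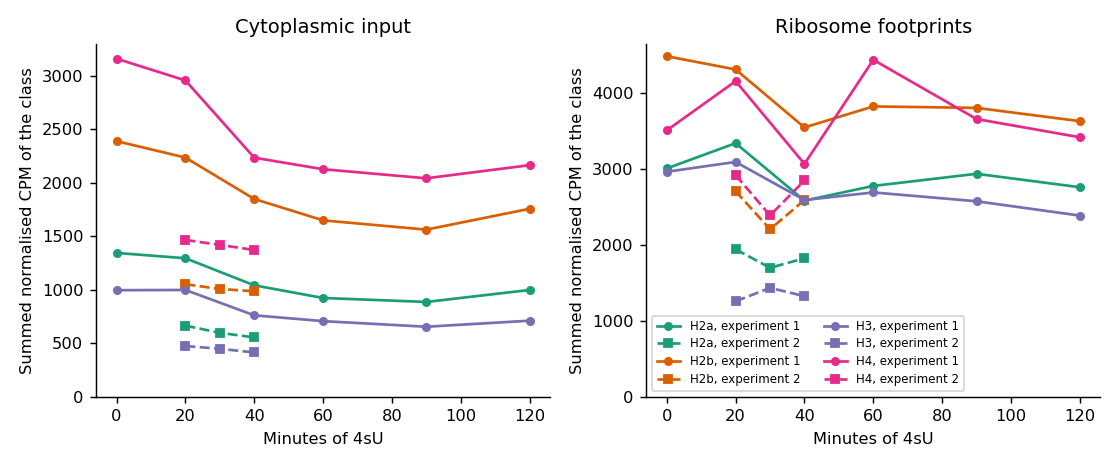
Summed level of each class (TMM-scaled CPM, vertical axis) against minutes of 4sU in input and footprints; solid lines are experiment 1, dashed lines experiment 2, and each point is 1 library. Input points of all 4 classes are highest at 0 or 20 min of experiment 1, and experiment 2 lies below experiment 1 in every class.

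Tested as a slope per hour over the 9 input libraries (edgeR), 1 of 50 members rose and 0 fell, against 0.475% and 6.51% of 9269 genes; at an unadjusted p under 0.05 the counts were the same, and DESeq2 also gave 0 falling. Because the experiments differed in level and in times, the slope depended on whether experiment was a term. With experiment as a block, 25 members fell and 1 rose, against 12.5% and 4.14% of all genes, and the median slope went from -0.09 to -0.28 log2 units per hour. The 25 were 7 H2A, 7 H2B, 5 H3 and 6 H4 genes, with Hist1h3g (-0.49), Hist1h2bg (-0.48) and Hist1h2ae (-0.48) the steepest and Hist4h4 at -0.42. In experiment 1 alone 7 members fell (5.49% of all genes). Over all libraries without the 0 min lysate, and with no block, the median slope was 0.12.

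In footprints 1 of 50 members rose and 1 fell, against 7.13% and 14.2% of 9664 genes. Hist1h2an, an H2A gene, was the one that fell (-0.42 log2 units per hour, adjusted p 0.0397). With experiment as a block 6 fell and 1 rose (16.5% and 9.41% of all genes), and in experiment 1 alone 9 fell and 1 rose (17.4% and 5.12%). The change of the footprint-to-input ratio with time passed the test in 0 of 50 members and 0% of 10110 genes by edgeR, in 0 members at an unadjusted p under 0.05, and in 0 by DESeq2.

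Hist2h2be was the member that rose in both materials. It lies at chr3:96221119-96223738 and its annotated transcript goes on for 2192 bases after the stop codon. Its input level in experiment 1 was 1.41, 1.90, 4.70, 2.59, 4.11 and 6.33 CPM from 0 to 120 min, and its footprint level 1.10, 1.92, 2.22, 4.61, 4.58 and 6.59 CPM. In experiment 2 it was 2.25, 2.01 and 2.37 CPM in input and 1.19, 1.65 and 1.45 CPM in footprints. The slopes were 0.91 log2 units per hour in input (SE 0.20, adjusted p 0.0249) and 1.36 in footprints (SE 0.19, adjusted p 0.00125). Its counts are low, 433 input reads in all libraries, and the input slope did not pass without the 90 min lysate (0.95, adjusted p 0.0781) or without the 120 min lysate (0.85, adjusted p 0.411).

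Core histone reads were converted several times more often than reads of other genes. In experiment 1, the share of core histone input reads with a conversion was 0.257% (95% Wilson interval 0.218% to 0.302%) at 0 min, then 3.71%, 6.49%, 11.8%, 15.3% and 24.5% (24.1% to 25.0%) at 20, 40, 60, 90 and 120 min. In all genes other than the 50 members, linker histones and variants included, the shares were 0.289%, 0.843%, 2.13%, 3.87%, 5.15% and 7.98%. Intervals cover counting error only. The unlabelled shares were close, and at the labelled times of experiment 1 the core histone share was 2.96 to 4.41 times that of other genes in input. In footprints the core histone shares were 0.276%, 2.72%, 5.97%, 10.5%, 16% and 22.3%, or 4.14 to 6.42 times the other genes at the labelled times. Experiment 2 gave 3.27%, 5.46% and 6.31% in input and 2.27%, 3.49% and 4.31% in footprints at 20, 30 and 40 min. The other genes stood at 0.803%, 1.71% and 1.97% in input and 0.296%, 0.479% and 0.844% in footprints. The folds were 3.20 to 4.07 in input and 5.10 to 7.67 in footprints. No unlabelled share was subtracted from the folds of either experiment. The 7.67, at 20 min, is no fold difference in labelling: its denominator was no higher than the unlabelled 0.298% of experiment 1. The 6.42 of experiment 1, also at 20 min, had a denominator of 0.425%, near that unlabelled share.

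**Figure D4:**
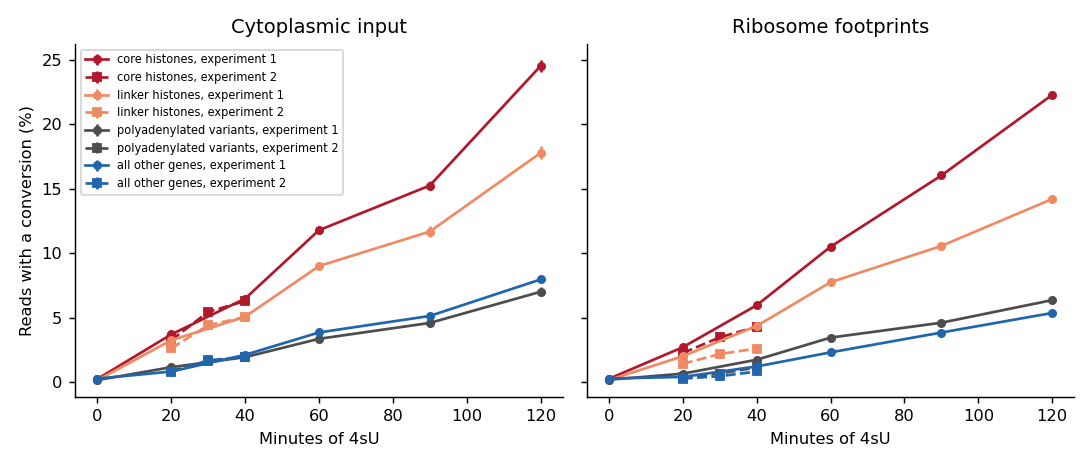
Percent of reads with a T-to-C conversion (vertical axis, bars are 95% Wilson intervals) against minutes of 4sU for core histones, linker histones, polyadenylated variants and all other genes, in input and footprints of both experiments. Core histones reach 24.5% in input at 120 min, above the linker histones at 17.8%, the other genes at 7.98% and the polyadenylated variants at 7.02%.

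The class shares lay close together, and some of their differences had the same sign in every labelled lysate. At 120 min the input share was 24.4% for H2A, 23.5% for H2B, 25.1% for H3 and 25.2% for H4, with Wilson intervals that overlapped between H2A, H3 and H4 (23.3% to 25.5%, 23.8% to 26.4% and 24.5% to 26.0%), while that of H2B (22.7% to 24.3%) lay below H4. The footprint shares were 23.6%, 23.0%, 21.3% and 21.2%. Within lysates, the input log2 odds of H2B were below those of H2A, H3 and H4 in 8 of 8 labelled lysates, by means of 0.12, 0.22 and 0.24. The smallest difference between H2A and H2B was 0.0027, at 20 min of experiment 2 (3.034% and 3.028%). In input H4 was above H2A in 7 of 8. In footprints H2A was above H2B and above H4 in 8 of 8, by means of 0.28 and 0.13. The unlabelled share, not subtracted here, was 0.439% for H2A, 0.218% for H2B and 0.229% for H4 in footprints. In input it was 0.429%, 0.206% and 0.258%. The H2A sums include Hist1h2ah, which carried conversions without label (below). With the unlabelled share subtracted, H2A was below H4 in footprints at 40 min of experiment 1 (5.93% and 6.05%). It stayed above H4 at the other labelled times of that experiment. Experiment 2 had no unlabelled lysate. At 120 min the linker histones stood at 17.8% in input and 14.2% in footprints, and the polyadenylated variants at 7.02% and 6.37%.

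Gene by gene, 50 of 50 members were above the library median in input conversion (limma on log2 odds over 8 labelled libraries, Benjamini-Hochberg over 7045 genes, of which 35.2% were higher). The median member had log2 odds 1.93 above the library median, with class medians of 1.82 for H2A, 1.98 for H2B, 1.97 for H3 and 2.07 for H4. In footprints 49 of 49 tested members were higher (32.5% of 6778 genes), with a median of 2.40. Core histone sequences offer fewer T to convert: their coding sequences have a median of 13.5% T, against 22.2% over 21877 coding genes, and the genes' reads were poorer in T. Counted as conversions per T position the median rose to 2.27 in input and 2.73 in footprints, with all members still called.

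Members differed in how strongly they were labelled. Hist2h2be had the highest relative input conversion, 3.71 (SE 0.24). Its converted shares in experiment 1 were 0 of 10 reads at 0 min, which allows up to 30.0%, then 14.3%, 15.2%, 36.4%, 40.0% and 38.5% (24.9% to 54.1% at 120 min). Its footprints were converted less, at 0% (0 of 25 reads, which allows up to 12.0%), 5.41%, 9.09%, 13.5%, 18.6% and 14.1% (8.61% to 22.3% at 120 min). The footprint share was below the input share at each labelled time, and the difference passed the test over the 16 labelled libraries (log2 odds -1.93, adjusted p 3.24e-05).

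Hist1h4n, the gene with 12 T in every read, stood at 3.31 in input and 4.31 in footprints, and at 2.50 and 3.35 when counted per T position. Its input shares in experiment 1 were 0%, 15.0%, 14.9%, 17.9%, 38.9% and 50.0% from 36 to 80 reads a library, and its footprint shares were 0.494%, 8.85%, 20.7%, 24.7%, 38.7% and 47.1%. At 120 min the intervals were 35.5% to 64.5% in input and 44.9% to 49.4% in footprints. These intervals overlap. The input share at 0 min was 0 of 47 reads, which allows up to 6.38%.

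Hist1h2ah, an H2A gene, carried conversions without label. In the unlabelled lysate 8% of its input reads (22 of 275, 5.34% to 11.8%) and 8.65% of its footprint reads (156 of 1803, 7.44% to 10.0%) had one, while no other member exceeded 1% there and the median member had 0.148% and 0.221%. Its relative conversion of 3.50 in input and 4.35 in footprints includes that background. With the unlabelled share of the whole library subtracted (0.289% of input and 0.298% of footprint reads), not its own, it was 3.82 and 5.38. Its own background thus stayed in these values. Hist1h2af, also H2A, was the least labelled member, at 0.55 in input (SE 0.21, adjusted p 0.033) with 7.13% of its reads converted at 120 min (5.22% to 9.67%); per T position it was 1.46.

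The remaining genes at the ends of their classes lay close to the rest. Hist1h3i (2.39) and Hist1h3e (1.20) bounded the H3 class, Hist1h2bn (1.15) was the lowest H2B gene and Hist1h4b (1.39) the lowest H4 gene. Hist4h4, with nearly all of its coding stretches unique, stood at 2.26 with input shares of 0.263%, 4.35%, 8.93%, 14.7%, 18.1% and 30.7%. It was above the members' median of 1.93, and whether shared sequence bears on the labelling was not tested.

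The 5 comparison lists had lower medians than the members. All 5 linker histones were higher than the library median (median 1.43). Of 8 tested polyadenylated variants 3 were higher and 4 lower: H2afx (1.43), H3f3b (1.17) and H1f0 (0.99) above, H2afz (-1.03), H2afy (-1.84) and H3f3a (-1.01) among those below. H2afx, the DNA-damage variant of H2A, is known to make both a stem-loop and a polyadenylated mRNA. Over all genes 35.2% were higher and 35.2% lower, so the shares of the variants and of the next list lie near the background. Of the genes for 3′ end formation 7 were higher and 9 lower of 24, with Casp8ap2 (1.79), Npat (1.62) and Slbp (1.01) among the higher ones, while of 18 histone chaperones 3 were higher and 11 lower. Of 17 S-phase genes 8 were higher and 4 lower, including Cdc25a (1.90) and Ccne2 (1.64).

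Conversion in footprints was then set against conversion in input of the same time. Of 50 members 19 were lower and 0 were higher in footprints (edgeR with converted and unconverted reads as paired columns, 8276 genes), against 59.4% lower and 0.145% higher over all genes. At an unadjusted p under 0.05 the counts were 24 and 0, and limma on the odds ratio of each lysate gave 16 and 0. The median log2 odds were -0.43 for members and -0.79 for all genes. The lower members were 6 of 13 H2A, 6 of 15 H2B, 2 of 10 H3 and 5 of 12 H4 genes, among them Hist1h2ab (-0.78) and Hist1h4d (-0.71). Of the linker histones 4 of 5 were lower (median -0.53) and of the tested polyadenylated variants 6 of 9 (median -0.61). Among the chaperones 19 of 20 were lower, among the S-phase genes 16 of 17 and among the tested 3′ end genes 19 of 26. The experiments differed in size: the class-summed log2 odds of core histones were -0.17 ± 0.20 (SD, n = 5 lysates) in experiment 1 and -0.60 ± 0.069 (n = 3) in experiment 2.

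**Figure D5:**
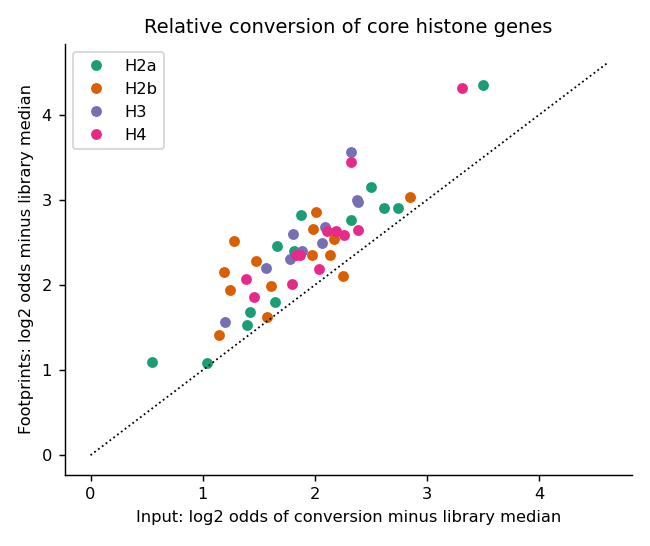
Relative conversion in footprints (log2 odds minus the library median, vertical axis) against that in input (horizontal axis), 1 point for each of the 49 members tested in both, coloured by class, with the dotted line of equality. Points lie above the line in 48 of 49 members, with a median difference of 0.52.

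Because other genes were lower in footprints by more, members stood further above the library median in footprints than in input: 48 of 49 did, with a median difference of 0.52. This was not counted over all genes. The medians of linker histones (1.43 in input, 1.83 in footprints), polyadenylated variants (-0.32 and -0.03), chaperones (-0.66 and -0.63) and S-phase genes (0.32 and 0.57) also rose. That of the 3′ end genes did not (-0.19 and -0.22). The same can be put in minutes for experiment 1, by reading off the time at which the input share, with the unlabelled share subtracted and straight lines between times, equalled the footprint share. Core histone footprints trailed input by 5.83, 3.85, 4.90, -2.47 and 7.31 min at 20, 40, 60, 90 and 120 min, and the other genes by 15.4, 14.1, 17.9, 30.1 and 27.7 min. Counted per T position, since footprint reads of members had more T (median 5.57 a read) than input reads (5.09), the core histone lags were 7.79, 8.77, 10.5, 12.2 and 16.9 min against 15.3, 13.5, 18.8, 31.6 and 27.4 min. On both scales the core histone lag was shorter than that of the other genes at each of the 5 times. Each time had 1 lysate and no replicate. The polyadenylated variants trailed by 10.6, 5.83, -1.63, 0.225 and 8.37 min, and per T position by 10.7, 5.61, 3.12, 4.05 and 13.2 min. Per T position they thus trailed by less than core histones from 40 to 120 min. By share they did so at 60 min alone. A short lag was not particular to core histones.

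The promoters of the 44 members found in RefSeq's GRCm38.p6 table differed in motif content between H4 and the other classes, without a complete separation. In the 250 bases before the start, on both strands, CCAAT was in 12 of 12 H2A, 13 of 13 H2B and 8 of 8 H3 genes but in 3 of 11 H4 genes (33.9% of 32851 promoters). GGTCCG was in 8 of 11 H4 genes, 0 of 12 H2A, 1 of 13 H2B and 1 of 8 H3 genes (6.72% of promoters). TATAA was in 28 of 44 members (22.8% of promoters) and TTTGCAT, the octamer core, in 5 H2A, 5 H2B, 0 H3 and 1 H4 gene (4.13%). Matches of different motifs were allowed to share letters. The 100 bases before the start are printed for the input-richest gene of each class, with motif matches of either strand in capitals. Of these 4, Hist2h2bb, Hist1h3c and Hist4h4 fell in input with experiment as a block, and Hist2h2ac had a slope of -0.20 log2 units per hour that did not pass (adjusted p 0.126).
Hist2h2ac, chr3:96220881-96220980, minus strand: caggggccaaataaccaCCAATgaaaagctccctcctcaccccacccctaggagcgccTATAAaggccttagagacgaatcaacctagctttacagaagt
Hist2h2bb, chr3:96269600-96269699, plus strand: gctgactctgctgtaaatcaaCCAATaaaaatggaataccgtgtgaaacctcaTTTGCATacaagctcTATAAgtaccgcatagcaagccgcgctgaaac
Hist1h3c, chr13:23745522-23745621, minus strand: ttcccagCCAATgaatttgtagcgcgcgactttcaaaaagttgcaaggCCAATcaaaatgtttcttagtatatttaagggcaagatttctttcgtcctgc
Hist4h4, chr6:136804432-136804531, minus strand: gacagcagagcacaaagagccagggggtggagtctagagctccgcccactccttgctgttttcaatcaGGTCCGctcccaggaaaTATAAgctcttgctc
A letter match describes the sequence and is not evidence of a bound factor.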

How the data were processed

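Cytoplasmic input and ribosome footprints of 9 RAW264.7 lysates (18 libraries) were measured by sequencing. The deposited files hold whole-number read counts per gene, split by T positions and conversions per read; the meaning of the columns was read from their headings and values (0 reads had more conversions than T positions). The authors used Bowtie 0.12.8 and the build mm10, per the submitters' processing notes; no source used here gives the counting program, the annotation, the region counted or the treatment of multiple matches.

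Counts were summed per gene and tested with edgeR 4.0.16 (quasi-likelihood, TMM, filterByExpr) in R 4.3.3; relative conversion used limma 3.58.1 on log2 odds (pseudocount 0.5) over the 8 labelled libraries of a material. Conversion tests needed a mean of 50 reads per library and 50 converted reads in all. All fits covered the whole table with Benjamini-Hochberg adjustment at 0.05, and were tested on simulated data. Totals of 6230562 to 87536081 reads set the precision; shares carry 95% Wilson intervals. SE values are from the fits. Sequences came from GENCODE M21 transcripts and RefSeq GRCm38.p6 promoters.

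Members and lists were chosen with earlier results of these data known. Named members were, per class, the 2 with the highest input level and the highest and lowest in footprint-to-input ratio and in relative input conversion, plus any that a count of 5 or fewer singled out; in the other lists, those with the 2 smallest adjusted p in each of these tests, and further ones named after their values were seen. Input and footprint of 1 lysate are paired by the protocol; their deviations correlated at 0.112 to 0.741 in the 9 pairs, and 4 of 9 libraries correlated best with their own lysate. Alternatives were DESeq2 1.42.0 (size factors, Wald test), a block for experiment or lysate, all genes with a read, single experiments, each lysate left out, core histones left out of scaling, 200 reads a gene, 3 to 7 T positions, conversions per T position, a pseudocount of 2 and subtraction of the unlabelled share. Experiment 2 alone, the interaction with experiment and the removal of the start-window T class were added after seeing the data.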

Additional observations from a re-analysis of the deposited data

Results flagged for a closer look

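The footprint-to-input ratio differed between the experiments in 11 members by a test of the difference itself (edgeR interaction of material and experiment): 8 were higher and 3 lower in experiment 2, against 13% higher and 12.7% lower over all genes. The differences, experiment 2 minus experiment 1 on the log2 scale, were 0.72 for Hist1h4c, 0.67 for Hist2h2ac, 0.62 for Hist1h2ab, 0.58 for Hist1h2an, 0.56 for Hist1h4f, 0.52 for Hist1h4d, 0.40 for Hist1h2ac and 0.37 for Hist1h2bh. Those lower were Hist2h4 (-0.81), Hist1h3d (-0.79) and Hist1h2ap (-0.64). Adjusted p ran from 0.00176 (Hist2h2ac) to 0.0368 (Hist1h2ac). Experiment 2 held only lysates of 20 to 40 min, at greater depth, so experiment, depth and part of the times cannot be told apart.

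Reads of histone genes outside the comparisons were also present. Hist1h2aa had 172 reads in 17 libraries, Hist1h2ba 46 in 16, Hist1h4m 31 in 11, and the linker gene Hist1h1t 107 in 15. Hist1h2aa, Hist1h2ba and Hist1h1t are known as testis histones, and assignment from near-identical copies was not tested.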

How the results depend on the processing

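The members called in footprints against input were 39 in the report and 39 to 46 under every alternative, with 43 with experiment (41 higher, 2 lower) and 42 with lysate as a block (40 higher, 2 lower), 46 in experiment 2 alone (43 higher, 3 lower: Hist1h3h, Hist1h2bl and Hist2h2be), and 39 to 40 with a lysate left out. The slopes depended on the block: with experiment as a block 26 members were called in input (25 of them falling) in place of 1, and 7 in footprints in place of 2; in experiment 1 alone 7 were called in input, all falling, and 10 in footprints. Leaving out a lysate gave 0 to 1 in input and 1 to 3 in footprints. The input slope of Hist2h2be did not pass in experiment 1 alone (0.88, adjusted p 0.0612). Conversion in footprints against input was called in 19 members, in 15 to 24 with a lysate left out, in 13 in experiment 1 alone (1 of them higher), in 28 in experiment 2 alone and in 19 with lysate as a block. Relative conversion was called in 46 to 50 members in input and 45 to 49 in footprints, and in 50 and 49 with experiment as a block. The ratio trend gave 0 throughout. With lysate as a block the calls of Hist1h2ak, Hist2h2ab and Hist1h2bl in footprints against input changed, with experiment as a block also that of Hist1h2an (0.25, adjusted p 0.0459), and no other member's call in that comparison or in the conversion tests.

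Ratios near 0 changed sign. Hist1h2ai was 0.049 with DESeq2 size factors, 0.045 with its Wald test, 0.015 without a filter, 0.015 with experiment and 0.013 with lysate as a block, -0.067 to 0.060 with a lysate left out (as low as 0.000624 among the 5 positive values) and 0.26 in experiment 2 alone. Hist4h4 was 0.014 with DESeq2 size factors, 0.013 with its Wald test, -0.10 to 0.031 with a lysate left out and 0.37 in experiment 2 alone. Hist1h2bn was -0.17 to 0.0063 with a lysate left out and 0.13 in experiment 2 alone, and Hist1h4b was -0.047 in experiment 2 alone. The cause was not tested. Depth limits Hist2h2be and Hist1h4n in input.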
